A study of Mus musculus with 2 samples.

Results

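Sox genes encode transcription factors with a DNA-binding domain of the high-mobility-group type, and related members are grouped by sequence. Sox9 (group E) is needed for cartilage formation and acts there with Sox5 and Sox6 (group D) on collagen and aggrecan genes. Sox6 also acts in red cell precursors. Sox4 (group C) is found in progenitors of many tissues, among them skeletal and B lineage cells, and Sox7, Sox17 and Sox18 (group F) act in blood and lymphatic vessels, where Sox17 is known for arterial identity and Sox18 for lymphatic development. These 7 genes were found by symbol among the 28006 features of 2 single-cell libraries, and 12 further Sox genes served as a list of relatives. They had been chosen with their levels in these cells known, so their levels by class are given as a description with no test.

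The libraries came from femurs of Mouse #1 and Mouse #2, both Cxcl12(GFP/+); Cxcl12-iCreER; R26R(tdTomato/+), analysed at postnatal day 28 after tamoxifen at postnatal day 21. Every cell thus carried GFP in place of 1 Cxcl12 allele, a tamoxifen-activated Cre driven by a Cxcl12 bacterial artificial chromosome transgene, and a tdTomato reporter that Cre switches on. Epiphyses and the distal growth plates of the femurs were discarded before the cells were freed by enzymes, and Cxcl12-GFP+ cells were sorted, although 1 protocol field names tdTomato+ cells instead. There was 1 group of 2 mice and no control group, so classes of cells were compared within mice.

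The libraries held 54940400 and 88790688 UMIs (molecular tags that count each captured transcript once), and 2750 and 4582 barcodes passed the limits for cells, with medians of 12966.5 and 12190 UMIs. Of these 7332 cells, 7 barcodes occurred in both libraries. Clusters were named from marker lists and carry the ending "-like", since they were assigned here and may part from the study's own annotation. Reticular-like cells, the Adipoq-rich stroma of the marrow, numbered 1309 and 2564, preosteoblast-like cells 412 and 784, mature osteoblast-like cells 14 and 62, and periosteal-like cells 80 and 238. Arterial-type endothelial-like cells numbered 123 and 109, and sinusoidal-type ones 28 and 28. All 8 endothelial markers were detected in both endothelial classes, at summed levels of 6658 and 6111 CPM (counts scaled to 1000000 UMIs of a class) in arterial-type and 4679 and 4897 CPM in sinusoidal-type cells, against 89.2 and 86.9 CPM in reticular-like cells. No cluster took the chondrocyte name, and the summed level of 6 chondrocyte markers was at most 0.675 CPM in any named class of the stroma or endothelium. Myeloid-like (372 and 339 cells), B cell-like (234 and 238) and erythroid-like cells (111 and 134) were also present in the sort. All intervals below are exact 95% Poisson intervals of summed UMIs, or Wilson intervals of shares of cells, and cover counting error only. Values are given for Mouse #1 and then for Mouse #2.

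On GRCm38 the genes lie apart: Sox4 at chr13:28948919-28953713 (minus strand), Sox5 at chr6:143828425-144781977 (minus), Sox6 at chr7:115470872-116038796 (minus), Sox9 at chr11:112782224-112787760 (plus), Sox7 at chr14:63943673-63950732 (plus), Sox17 at chr1:4490931-4497354 (minus) and Sox18 at chr2:181669836-181671640 (minus). The gene Gm26735 overlaps Sox4 on the other strand and was counted too, as were 5 opposite-strand genes in the Sox5 locus and 2 in the Sox6 locus. Whether counting used strand is not given in the sources used here, so it is not known whether these pairs share reads. No annotated gene overlaps Sox9, Sox7 or Sox18.

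The 7 genes fell into 4 patterns across the classes. Sox9 and Sox4 UMIs were mostly stromal, with 96.6% and 93.3% of Sox9 UMIs and 84.4% and 89.7% of Sox4 UMIs in the reticular-like, preosteoblast-like, mature osteoblast-like and periosteal-like cells together. Sox6 was a gene of the erythroid-like cells and Sox5 was barely detected anywhere. Endothelial-like cells held 98.2% and 95.1% of the Sox7 UMIs, 98.6% and 88.3% of the Sox17 UMIs and 99.3% and 92.3% of the Sox18 UMIs.

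**Figure D1:**
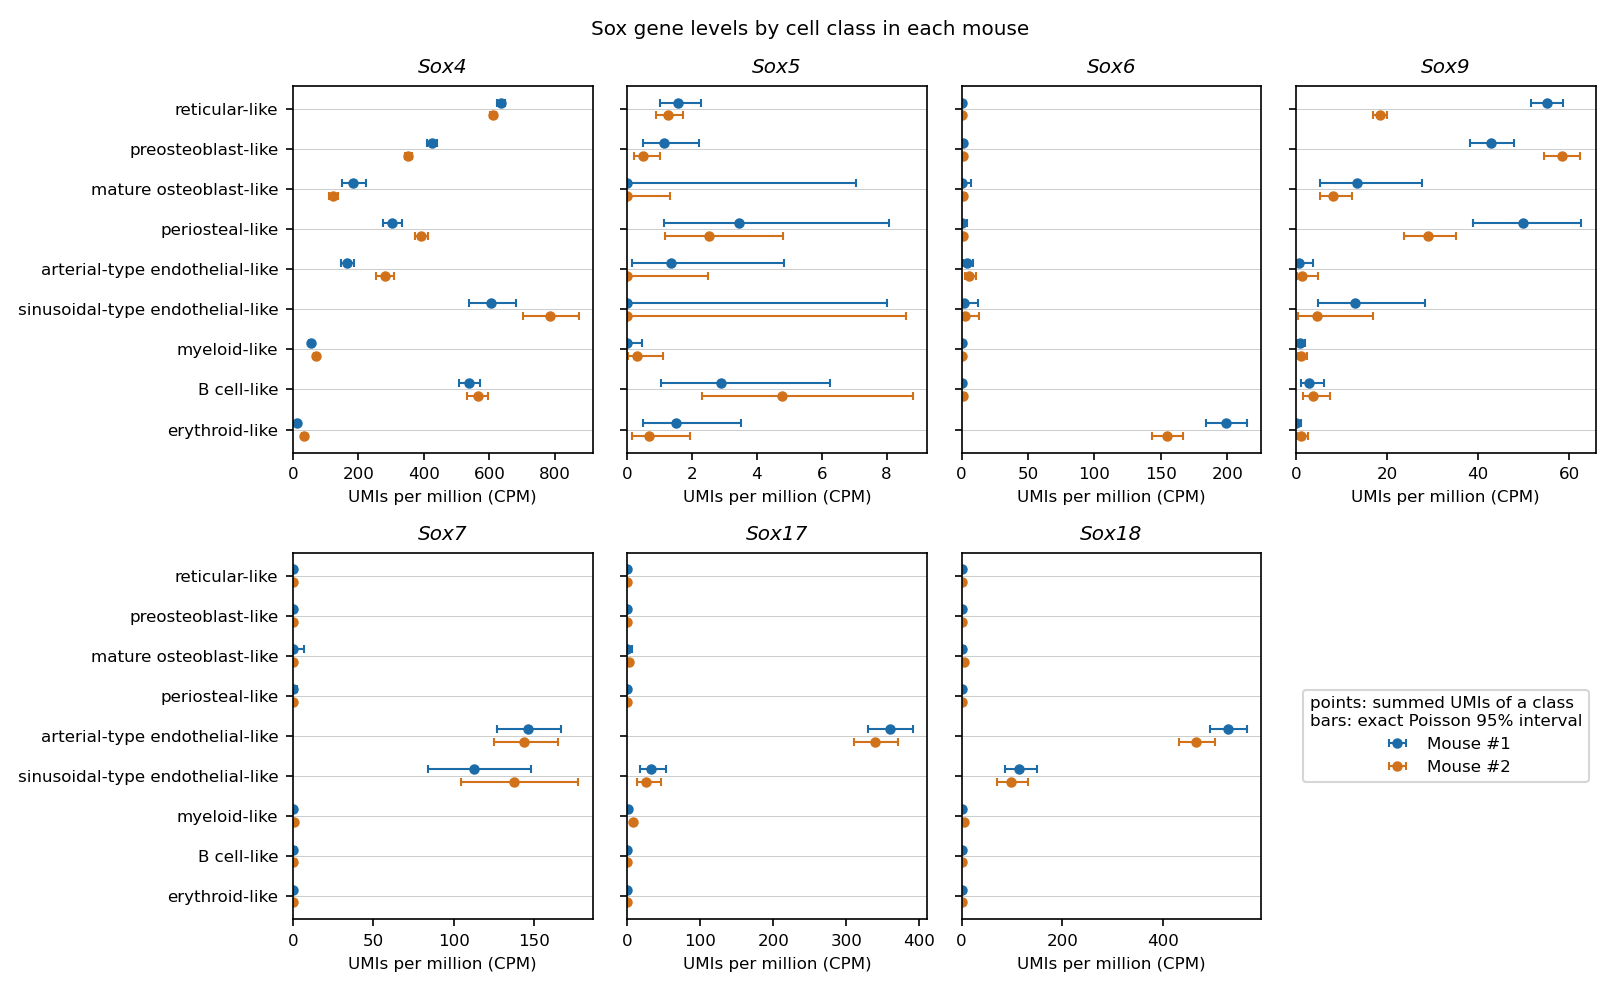
Level of each Sox gene (x axis, CPM, linear, a scale of its own per panel) in 9 cell classes (y axis) of Mouse #1 and Mouse #2, as points with exact Poisson 95% intervals. Sox7, Sox17 and Sox18 stand above 0 in the endothelial rows, Sox6 in the erythroid row, and Sox9 in stromal rows with the mice apart in reticular-like cells (55.1 and 18.5 CPM).

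Sox9 differed between the mice. In reticular-like cells it reached 55.1 CPM (51.6 to 58.8; 917 UMIs) in Mouse #1 and 18.5 CPM (17.03 to 20.1; 570 UMIs) in Mouse #2. In preosteoblast-like cells, the stroma rich in Alpl and Spp1, it stood at 42.8 CPM (38.2 to 48.0; 303 UMIs) and 58.4 CPM (54.5 to 62.5; 831 UMIs). The order of these classes was thus opposite in the 2 mice. The log2 ratio of preosteoblast-like over reticular-like cells was -0.36 in Mouse #1 and 1.66 in Mouse #2, a mean of 0.65 ± 1.43 (SD, n = 2), so no common direction was measured.

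Periosteal-like cells, marked by Clec3b and Mfap5, held Sox9 at 49.8 CPM (39.0 to 62.7) and 29.0 CPM (23.7 to 35.2). Their log2 ratio over reticular-like cells was -0.15 and 0.65, again of opposite sign. Mature osteoblast-like cells, rich in Bglap, were lower than the other stromal classes in both mice, at 13.4 CPM (5.39 to 27.6; 7 UMIs) and 8.26 CPM (5.24 to 12.4; 23 UMIs). Within Mouse #1 the intervals of periosteal-like cells overlapped those of reticular-like and preosteoblast-like cells, while in Mouse #2 the intervals of the 4 stromal classes did not overlap. In Mouse #2, however, 1 of the 238 periosteal-like cells held 27 of their 103 Sox9 UMIs, and the intervals do not cover such clumping.

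Outside the stroma Sox9 stood at 0.669 and 1.35 CPM in arterial-type endothelial-like cells, at 0.988 and 1.23 CPM in myeloid-like cells, at 0 and 1.11 CPM in erythroid-like cells and at 2.88 and 3.83 CPM in B cell-like cells. In sinusoidal-type endothelial-like cells it reached 13.01 CPM (4.77 to 28.3) and 4.66 CPM (0.565 to 16.8), the former near the level of mature osteoblast-like cells, but these were 6 and 2 UMIs, and 5 of the 6 lay in 1 cell. In barcodes with 1 to 100 UMIs, which hold mostly free RNA, it reached 20.4 and 22.6 CPM. After thinning each cell to 2000 UMIs, 7.05% (5.78 to 8.57) and 2.74% (2.18 to 3.45) of reticular-like cells and 7.06% (4.96 to 9.95) and 8.85% (7.05 to 11.05) of preosteoblast-like cells had a Sox9 UMI. The same share was 0 of 371 myeloid-like cells in Mouse #1, which allows up to 1.02%, and 1 of 339 (0.295%) in Mouse #2. Without thinning, the shares were 22.2% and 10.5% in reticular-like, 28.6% and 34.8% in preosteoblast-like and 1.08% and 1.18% in myeloid-like cells. The median cell held 12067 and 11209 UMIs among reticular-like, 15555 and 16372.5 in preosteoblast-like and 14855.5 and 11614 in myeloid-like cells.

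A small number of cells held a large share of the reticular-like Sox9 UMIs. In Mouse #1, 65 of 1309 cells had at least 4 Sox9 UMIs and together held 554 of the 917 UMIs, and the richest cell held 54. In Mouse #2, 39 of 2564 cells held 271 of the 570 UMIs. A finer clustering of the stroma, at a higher resolution, placed 53 of the 65 cells of Mouse #1 in 1 reticular-like cluster that was led by Lsmem1 and Rgs16 and had the highest sum, over both mice together, of 8 immediate early genes (Fos, Jun, Egr1 and others, which respond quickly to stimulation or handling and were picked after the data were seen). Sox9 stood there at 104.7 CPM (97.0 to 113.0) in Mouse #1 and at 21.8 CPM (17.8 to 26.4) in Mouse #2, and the immediate early genes at 17493 and 12874 CPM. Their part in the result was not tested.

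The other larger reticular-like clusters held Sox9 at 18.7 to 39.2 CPM in Mouse #1 and 16.1 to 22.3 CPM in Mouse #2. The cluster led by Hspb1 and Hspa1b had immediate early genes at 15920 and 14428 CPM, close to the first cluster, with Sox9 at 39.2 and 22.3 CPM. Leaving out the cluster led by Lsmem1 was a choice made after the data were seen. The mean log2 ratio over reticular-like cells was then 1.27 for preosteoblast-like and 0.88 for periosteal-like cells. In both mice the other larger reticular-like clusters had point values below preosteoblast-like cells (42.8 and 58.4 CPM) and periosteal-like cells (49.8 and 29.0 CPM). The cluster led by Hspb1 had intervals of 31.1 to 48.8 and 19.1 to 25.9 CPM. These overlapped the intervals of preosteoblast-like cells in Mouse #1 and of periosteal-like cells in both mice. The part of the cluster led by Lsmem1 in the order of the classes was not tested. Among preosteoblast-like cells, the cluster led by Npy, Spp1 and Omd held Sox9 at 41.2 and 63.2 CPM and the cluster led by Kcnk2 and Slc20a2 at 44.1 and 40.2 CPM. Their order too differed between the mice.

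**Figure D2:**
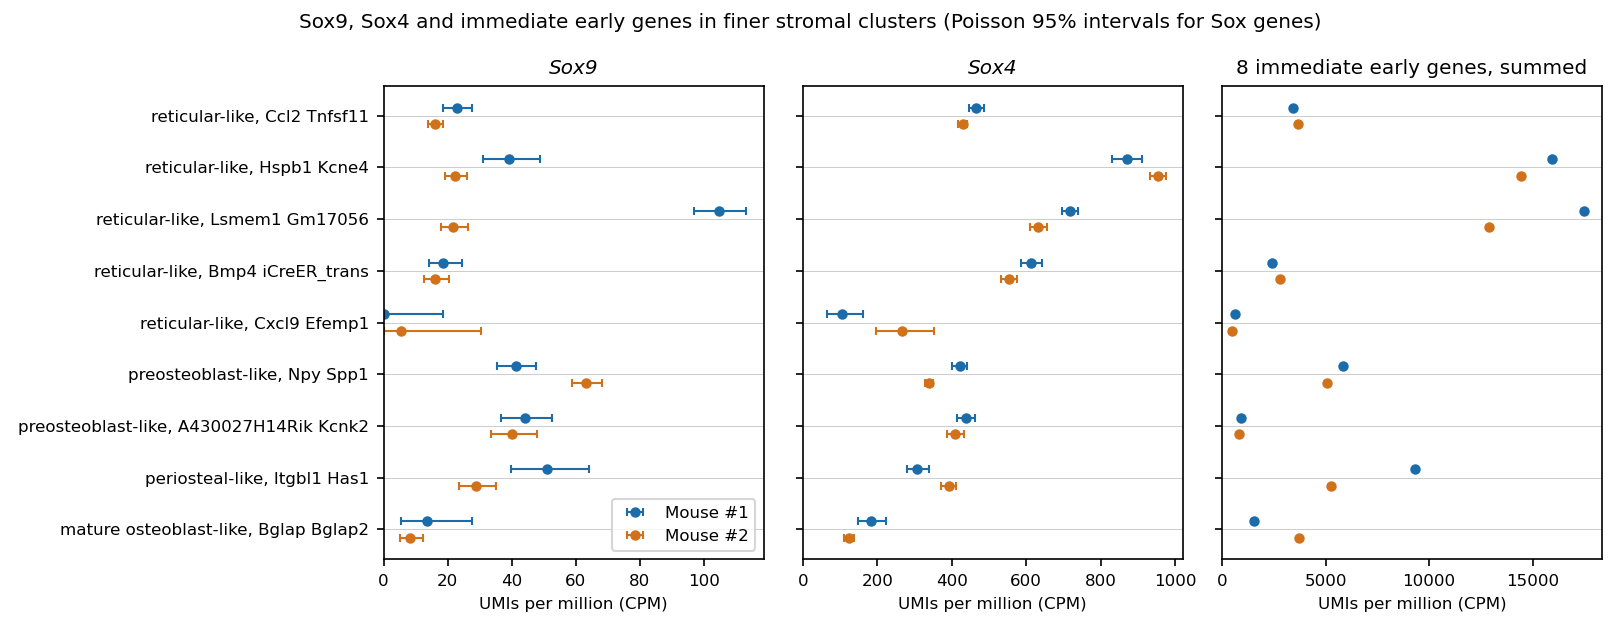
Level of Sox9 and Sox4 (points with exact Poisson 95% intervals) and the sum of 8 immediate early genes (points) in finer clusters of the stroma, in CPM on linear axes, for Mouse #1 and Mouse #2. Each cluster is named by its class and leading genes, and Sox9 of Mouse #1 stands apart at 104.7 CPM in the reticular-like cluster led by Lsmem1.

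Preosteoblast-like cells with at least 4 Sox9 UMIs (21 and 64 cells) were compared with those that had none (294 and 511), as a description, since Sox9 itself chose the cells and they were deeper (medians of 18995 and 24452.5 against 14290 and 14958 UMIs). Dcn, the small matrix proteoglycan decorin, stood at 941 against 355 CPM in Mouse #1 and at 2486 against 939 CPM in Mouse #2. Omd (osteomodulin) and Lum (lumican), of the same proteoglycan family, were also higher in both mice, Omd at 360 against 119 and 1414 against 571 CPM, Lum at 551 against 271 and 1069 against 426 CPM. Of secreted antagonists, the BMP inhibitor Nog stood at 29.5 against 7.28 and 35.7 against 14.8 CPM, and the Wnt inhibitor Wif1 at 1236 against 616 and 901 against 495 CPM. Col2a1 went the other way, at 6.80 (1.40 to 19.9) against 21.2 CPM and 3.18 (1.03 to 7.43) against 35.5 CPM. In the finer clustering, the cluster led by Npy, Spp1 and Omd held 11 and 60 cells with at least 4 Sox9 UMIs. The cluster led by Kcnk2 and Slc20a2 held 10 and 4. Omd, Wif1 and Nog were among the leading genes of the former cluster, and its part in these differences was not tested.

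Some of the genes that Sox9, Sox5 and Sox6 serve in cartilage were sparse here and others were not. Acan, the gene of aggrecan, had 4 UMIs over all cells, Col9a1 had 12 and Matn1 had 0. Col11a1 had 29229 UMIs, Col11a2 had 8232 and Col2a1 had 3972. Col2a1, the main collagen of cartilage, was instead highest in mature osteoblast-like cells, at 490 CPM in Mouse #1 and 997 CPM in Mouse #2, where Sox9 was lowest of the stromal classes. Col11a2 reached 2220 and 2312 CPM and Col11a1 4429 and 5016 CPM in the same cells. In preosteoblast-like cells Col2a1 stood at 34.2 and 25.6 CPM, and in reticular-like cells at 2.64 and 1.88 CPM.

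**Figure D3:**
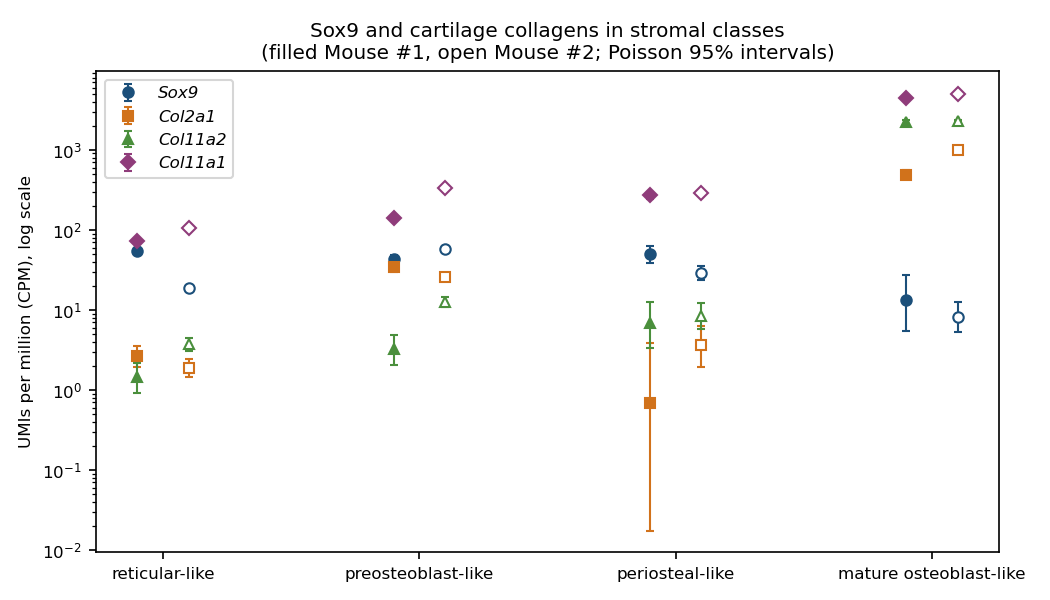
Levels of Sox9, Col2a1, Col11a2 and Col11a1 in 4 stromal classes, in CPM on a log axis, filled for Mouse #1 and open for Mouse #2, with exact Poisson 95% intervals. Levels are to be compared within a gene across classes: the 3 collagens are highest, and Sox9 lowest, in mature osteoblast-like cells.

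Genes linked to the Sox factors were tested between classes. The lists were drawn up with earlier results of these libraries known, so the calls are not independent evidence. Counts were summed per mouse and class and fitted with edgeR's quasi-likelihood test over 13218 genes, with Benjamini-Hochberg adjustment. Of 61 linked genes in 5 lists, 43 passed the filter on low counts. The 3 comparisons below share the reticular-like sums. In preosteoblast-like against reticular-like cells 13 of the 43 were called at an adjusted p under 0.05, 9 higher and 4 lower, against a background of 17.2% of all genes called (8.10% higher and 9.09% lower). The median log2 fold change of the 43 was 0.39, and that of all genes -0.00.

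Of 12 cartilage targets, 5 could be tested and 1 rose. Col2a1 rose by 3.65 ± 0.43 (log2, SE, adjusted p = 9.00e-05), while Comp, a cartilage matrix protein, had a log2 fold change of 1.49 ± 0.57 that did not pass (adjusted p = 0.0948). Of 14 upstream signals and partners of Sox9, 12 could be tested, of which 2 rose and 1 fell. Pth1r, the receptor of parathyroid hormone, stood at 474 and 502 CPM in preosteoblast-like against 137 and 115 CPM in reticular-like cells, a log2 rise of 1.87 ± 0.43 (adjusted p = 0.00880). Its ligand gene Pthlh rose by 3.96 ± 1.09 (adjusted p = 0.0275), from 0 and 0.455 CPM to 0.707 and 8.08 CPM, so that most of its UMIs lay in Mouse #2, and was not called by DESeq2. Arid5b, a partner of Sox9 in cartilage, fell by 1.14 ± 0.21 on the log2 scale (adjusted p = 0.00240). Runx2, the master factor of osteoblasts, had a log2 fold change of 0.42 ± 0.37 (adjusted p = 0.501), with 307 and 314 CPM against 225 and 213 CPM.

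Of 18 genes that act with group F factors in vessels, all were tested in preosteoblast-like cells, 4 rose and 3 fell, with a median log2 fold change of 0.05. The genes that rose were Mef2c (2.35 ± 0.37), a factor that also acts in bone, and Hey1, Hey2 and Efnb2, of which Hey1 stood at 108 and 98.5 CPM against 29.4 and 19.9 CPM. Hey2 passed the filter only through the preosteoblast-like sums, so its direction was fixed by the filter. Vcam1, an adhesion molecule that reticular-like cells held at 1894 and 1795 CPM, fell by 2.09 ± 0.35 on the log2 scale, and Rbpj, the partner of Notch in the nucleus, fell by 1.65 ± 0.23. The last of the 3 was Gja5, which stood under 3 CPM in both classes. Of the 5 targets of group C factors, Tead2 and Tubb3 rose, the latter from 0.180 and 0.325 CPM to 0.424 and 2.04 CPM. Tubb3 lost its call with stricter or looser limits on cells and with the highest doublet scores removed. With the mouse as a block Fgfr3 and Wwp2 were called higher as well (adjusted p = 0.0415 and 0.0462).

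In periosteal-like against reticular-like cells 10 of the 43 genes were called, 5 higher and 5 lower, against a background of 16.0% (8.20% higher and 7.84% lower). The median of the 43 was 0.11 and that of all genes -0.08. Comp rose by 3.25 ± 0.61 (adjusted p = 0.00252), from 4.57 and 2.18 CPM to 44.3 and 21.9 CPM. Pthlh, at 32.5 and 126.1 CPM, was higher there than in reticular-like cells in both mice (adjusted p = 0.000269). The endothelial factors Nr2f2 and Erg and the ligand Efnb2 rose by 1.71, 3.89 and 1.52 (log2), although Erg reached no more than 8.30 CPM. Vcam1, Rbpj, Fgfr3, Hey1 and Gja5 fell, but Fgfr3, Hey1 and Gja5 lost their call with DESeq2's size factors in place of TMM, which called 7 of the 43, and with DESeq2 itself, which called 8. Gja5 also lost it with the highest doublet scores removed. DESeq2's size factors and DESeq2 itself called 2094 and 2387 of all 13218 genes, against 2120 in the main fit. Col2a1 (0.28 ± 0.72, adjusted p = 0.841) and Runx2 (-1.07 ± 0.38, adjusted p = 0.0780) missed the threshold. Blocking on the mouse, Runx2 and Sox12 were called lower (adjusted p = 0.0291 and 0.0237) and Col11a1 higher (0.0179).

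**Figure D4:**
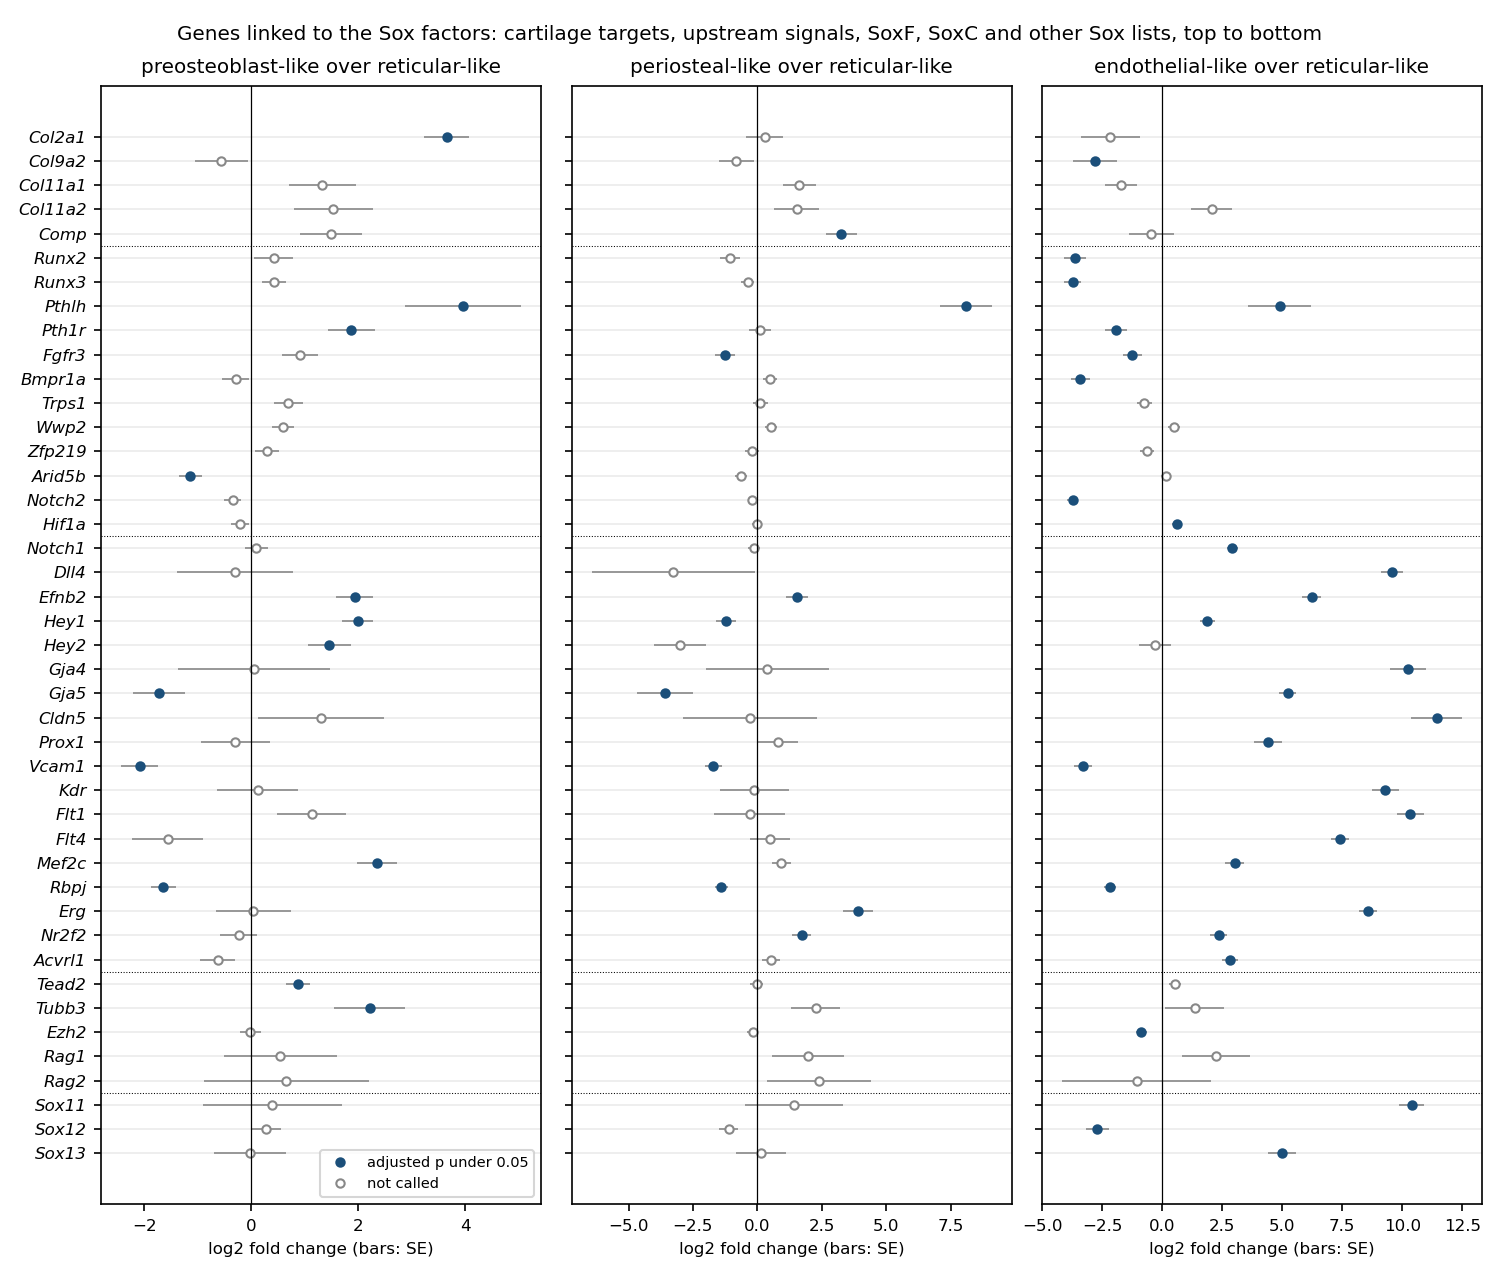
Log2 fold change (x axis, bars are SE) of the 43 tested genes linked to the Sox factors (y axis, in 5 lists parted by dotted lines) in preosteoblast-like, periosteal-like and endothelial-like over reticular-like cells, from edgeR's quasi-likelihood fit to sums of 2 mice. Filled points passed an adjusted p of 0.05, which were 13, 10 and 30 genes. They include Hey2 in preosteoblast-like cells and Dll4, Flt4, Gja4, Gja5, Prox1, Sox11 and Sox13 in endothelial-like cells. The filter on low counts fixed the direction of these genes.

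Sox4 had the most UMIs of the 7 genes, 45229 over all cells. Reticular-like cells held it at 636 CPM (624 to 648) in Mouse #1 and 611 CPM (603 to 620) in Mouse #2. Preosteoblast-like cells stood at 424 CPM (409 to 440) and 353 CPM (343 to 362), and mature osteoblast-like cells at 184 CPM (149 to 224) and 124 CPM (111 to 138). Reticular-like, preosteoblast-like and mature osteoblast-like cells thus kept this order in both mice with no overlap of intervals. The log2 ratio of preosteoblast-like over reticular-like cells was -0.58 and -0.79, a mean of -0.69 ± 0.15 (SD, n = 2).

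Periosteal-like cells held Sox4 at 302 CPM (275 to 332) and 392 CPM (371 to 413), below preosteoblast-like cells in Mouse #1 and above them in Mouse #2. Among reticular-like clusters, the one led by the heat shock genes Hspb1 and Hspa1b was highest in both mice, at 870 CPM (830 to 911) and 953 CPM (931 to 975). The cluster led by Ccl2 and Tnfsf11 stood at 466 and 429 CPM, and the cluster led by Lsmem1 at 717 and 633 CPM. The cluster led by Bmp4 lay between, at 614 CPM (586 to 643) and 553 CPM (531 to 576). Immediate early genes were high in the 2 clusters with the most Sox4, but their order in the other 2 was opposite to that of Sox4, at 3413 and 3665 CPM in the cluster led by Ccl2 and 2434 and 2820 CPM in the one led by Bmp4. A small cluster led by Cxcl9 and Efemp1 (44 and 45 cells) was lowest in both, with Sox4 at 105 and 268 CPM and immediate early genes at 621 and 503 CPM. Their part in these levels was not tested.

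Among blood cells, B cell-like cells held Sox4 at 538 CPM (507 to 571) and 564 CPM (532 to 597), near the reticular-like level. Rag1, a recombinase gene of early B cells and 1 of the listed targets of group C factors, stood at 118 and 77.1 CPM in B cell-like cells and at 0.180 and 0.0325 CPM in reticular-like cells. Myeloid-like and erythroid-like cells held Sox4 at 54.2 and 70.5 CPM and at 13.8 and 33.1 CPM. After thinning, 55.4% (52.7 to 58.1) and 55.6% (53.7 to 57.5) of reticular-like cells had a Sox4 UMI, against 1.80% and 2.24% of erythroid-like cells, whose median depth was 23737 and 25365.5 UMIs.

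Of the group D genes, Sox6 had 1435 UMIs, and 96.5% and 93.4% of those in named classes lay in erythroid-like cells. Its level there was 199 CPM (184 to 215) and 155 CPM (144 to 167), and 36.0% (27.7 to 45.3) and 26.1% (19.4 to 34.1) of the thinned cells had a UMI. In stromal classes it did not pass 1.44 CPM in either mouse. The next class was arterial-type endothelial-like, with 6 and 8 UMIs (4.01 and 5.40 CPM). Sox5 had 132 UMIs in 114 cells. Its highest levels were 3.46 CPM (1.12 to 8.07) and 2.53 CPM (1.16 to 4.81) in periosteal-like and 2.88 CPM (1.06 to 6.27) and 4.79 CPM (2.30 to 8.81) in B cell-like cells. The periosteal-like intervals and the B cell-like one of Mouse #1 overlapped those of most other classes. In Mouse #2 the B cell-like interval, from 10 UMIs, lay above those of reticular-like, preosteoblast-like, mature osteoblast-like, myeloid-like and erythroid-like cells. A full order of the classes was not detectable at this depth.

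The group F genes separated from each other within the endothelium. Sox17 stood at 359 CPM (329 to 391; 537 UMIs) and 339 CPM (310 to 370; 502 UMIs) in arterial-type cells, which carry Sema3g and Bmx, and at 32.5 CPM (18.2 to 53.6; 15 UMIs) and 25.7 CPM (12.8 to 45.9; 11 UMIs) in sinusoidal-type cells, which carry Stab2 and Gpr182. Its log2 ratio of arterial-type over sinusoidal-type was 3.46 and 3.72, a mean of 3.59 ± 0.18 (SD, n = 2). Sox18 followed with 529 CPM (493 to 567) and 467 CPM (432 to 503) against 115 CPM (86.1 to 150) and 97.9 CPM (70.6 to 132), a log2 ratio of 2.20 and 2.25 (mean 2.23 ± 0.03). Sox7 was nearly level, at 146 CPM (127 to 167) and 144 CPM (125 to 164) against 113 CPM (84.2 to 148) and 138 CPM (105 to 177), and its log2 ratio of 0.37 and 0.06 (mean 0.22 ± 0.22) was no larger than the spread between the mice.

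Sox4 had the opposite order. Sinusoidal-type cells held it at 605 CPM (536 to 680) and 784 CPM (702 to 872), and arterial-type cells at 166 CPM (146 to 188) and 282 CPM (255 to 310), a log2 ratio of -1.87 and -1.48 (mean -1.67 ± 0.28). The sinusoidal-type class rests on 28 cells per mouse, and single cells held up to 80 of its Sox4 UMIs in Mouse #2. Reticular markers summed to 1850 and 3435 CPM in sinusoidal-type and to 465 and 589 CPM in arterial-type cells, against 17303 and 14926 CPM in reticular-like cells. Preosteoblast markers summed to 4374 and 3806 CPM in sinusoidal-type and to 177 and 693 CPM in arterial-type cells, against 2415 and 3540 CPM in reticular-like cells, and mural markers to 1262 and 1479 CPM against 326 and 70.9 CPM. The part of these markers in the Sox4 difference was not tested.

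Cells with UMIs of all 3 group F genes made up 45.5% and 49.5% of arterial-type cells (56 of 123 and 54 of 109). Among sinusoidal-type cells they were 3 of 28 and 2 of 28. Only 5 and 1 arterial-type cells had none of the 3 genes, against 5 and 2 sinusoidal-type cells. Arterial-type cells were the shallower class (medians of 9754 and 10901 against 14316 and 12563 UMIs). After thinning, 46.3% (37.8 to 55.1) and 39.4% (30.8 to 48.8) of arterial-type cells had a Sox17 UMI, against 7.14% (1.98 to 22.6) and 3.57% (0.633 to 17.7) of sinusoidal-type cells, while Sox7 had a UMI in 23.6% and 23.9% against 17.9% and 17.9%. In reticular-like cells the thinned share was 0 of 1305 and 0 of 2551 for Sox17, which allows up to 0.294% and 0.150%.

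**Figure D5:**
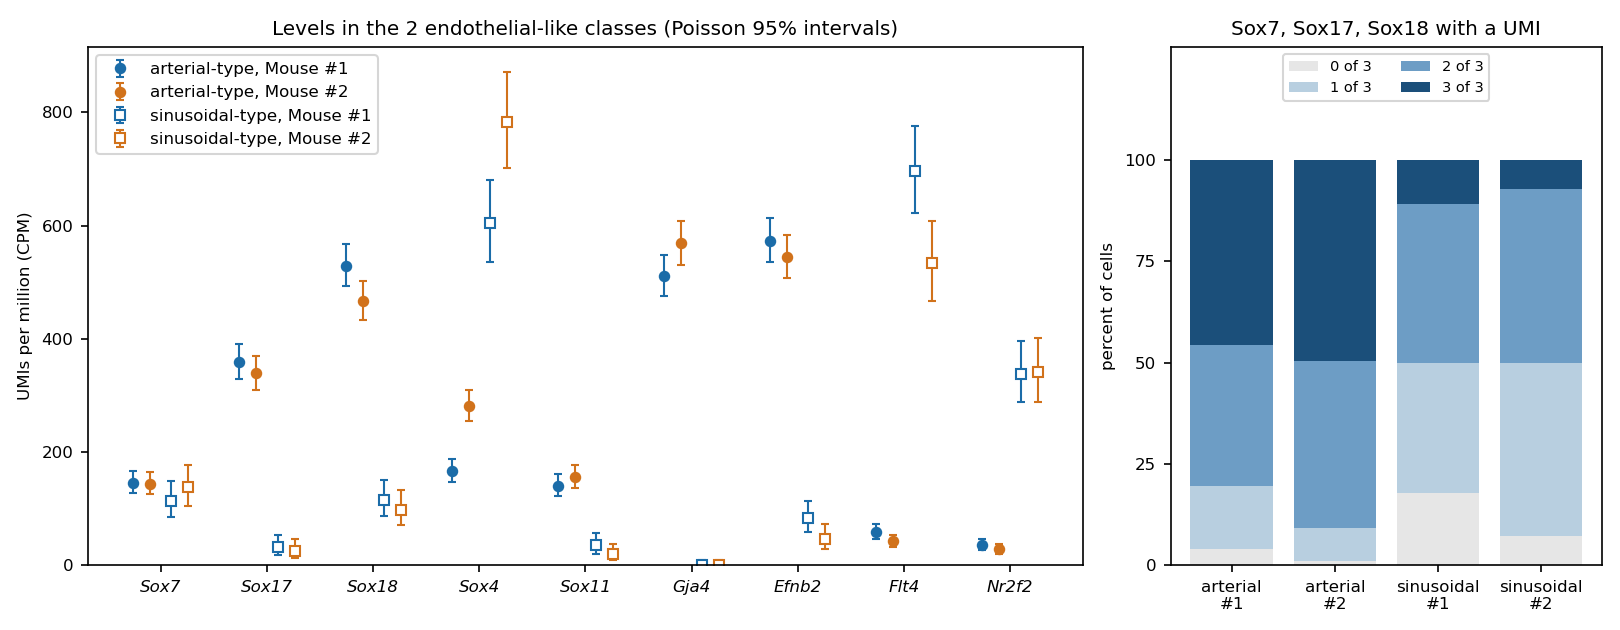
Left, levels of Sox genes and vessel genes in arterial-type (filled circles) and sinusoidal-type (open squares) endothelial-like cells of each mouse, in CPM with exact Poisson 95% intervals on a linear axis. Right, percent of cells with a UMI of 0, 1, 2 or 3 of Sox7, Sox17 and Sox18, where all 3 were seen in 45.5% and 49.5% of arterial-type cells and in 10.7% and 7.14% of sinusoidal-type cells.

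Group F UMIs outside the endothelium were few, with an exception in Mouse #2. Its 339 myeloid-like cells held 85 UMIs of Sox17 and Sox18, all in 4 cells that also held 59 UMIs of Cdh5, the endothelial cadherin. In Mouse #1 the corresponding number was 5 UMIs in 1 cell with 15 Cdh5 UMIs. Sox13, of group D, had 72 UMIs in the myeloid-like cells of Mouse #2 and 13 in those of Mouse #1. Mature osteoblast-like cells held 13 Sox18 UMIs in Mouse #2, of which 12 lay in 1 of 62 cells, and 0 in Mouse #1.

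In endothelial-like against reticular-like cells, with both endothelial classes summed, 30 of the 43 linked genes were called, 19 higher and 11 lower, against a background of 41.4% of all genes called (19.9% higher and 21.6% lower). The 19 include Sox11, Sox13 and 5 genes named below that passed the filter on low counts only through the endothelial-like sums. Their direction was thus fixed. With DESeq2's size factors in place of TMM, the calls over all genes moved from 2625 higher and 2852 lower to 3330 and 2413, and the median log2 fold change of all genes from -0.08 to 0.05. In the periosteal-like comparison the corresponding calls moved from 1084 and 1036 to 1383 and 711, and the median from -0.08 to 0.04. Of the 18 genes that act with group F factors 15 were higher, 2 lower and 1 was not called, with a median log2 fold change of 4.81 against -0.08 for all genes. Of the 15, Dll4, Flt4, Gja4, Gja5 and Prox1 passed the filter on low counts only through the endothelial-like sums, so their direction was fixed by the filter, and the other 10 passed without those sums. The median of 4.81 includes the 5 genes fixed by the filter. The tight junction gene Cldn5 stood at 1550 and 1478 CPM against 0.541 and 0.455 CPM, the connexin Gja4 at 390 and 441 against 0.481 and 0.195 CPM, and the Notch ligand Dll4 at 173 and 135 against 0.180 and 0.162 CPM. The VEGF receptors Kdr (678 and 542 CPM), Flt1 (1149 and 950 CPM) and Flt4 (209 and 152 CPM) and the factor Erg (136 and 127 CPM) also rose, each from at most 1.07 CPM in reticular-like cells. Adjusted p-values by edgeR's test lay between 7.19e-09 and 1.54e-06 for Cldn5, Kdr, Flt1 and Erg. Fitted folds of genes this close to 0 in reticular-like cells depend on the prior count, and the levels are given in their place. Vcam1 (175 and 229 CPM) and Rbpj (64.4 and 70.7 CPM) were lower, with log2 fold changes of -3.30 ± 0.37 and -2.16 ± 0.25.

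The genes of this list parted between the endothelial classes in several ways. Gja4 had 763 and 842 UMIs in arterial-type cells and 0 and 0 in sinusoidal-type cells, and Gja5 had 170 and 240 against 0 and 0. Efnb2 stood at 573 and 544 against 82.4 and 46.6 CPM, and Hey1 at 118 and 132 against 2.17 and 11.7 CPM. Flt4, the receptor of lymphatic growth factors, had the opposite order, at 58.2 and 41.9 against 696 and 534 CPM, as did Nr2f2, a factor of veins, at 35.4 and 27.7 against 338 and 340 CPM. Prox1, the lymphatic factor that Sox18 is known to switch on, stood at 21.4 and 23.0 against 43.4 and 46.6 CPM. These values are a description, with no test between the 2 classes.

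Among the upstream signals and partners of Sox9, endothelial-like cells were lower in 6 and higher in 2 of 12 tested genes. Notch2, Runx3, Runx2 and Bmpr1a had log2 fold changes between -3.73 and -3.40. Of the cartilage targets, Col9a2 was lower, a call that DESeq2 did not make, and Col2a1 (-2.16 ± 1.23, adjusted p = 0.182) and Comp (-0.44 ± 0.94, adjusted p = 0.741) missed the threshold. Blocking on the mouse, Col11a1 was called lower and Col11a2 higher (adjusted p = 0.0132 and 0.0160).

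Of 12 other Sox genes, 3 passed the filter, Sox11 and Sox13 only through the endothelial-like sums. Both are among the genes counted as higher above, but the filter fixed that direction, so only their values are given. Sox11, of group C with Sox4, had 209 and 231 UMIs (140 and 156 CPM) in arterial-type and 16 and 8 UMIs (34.7 and 18.7 CPM) in sinusoidal-type cells, but 0 and 3 UMIs in reticular-like cells. Sox13, of group D, stood at 55.2 and 72.3 CPM in endothelial-like against 2.04 and 1.66 CPM in reticular-like cells and had 107 and 138 UMIs in arterial-type against 1 and 0 in sinusoidal-type cells. Sox12, of group C, fell by 2.69 ± 0.46 on the log2 scale in endothelial-like cells (adjusted p = 0.000355), at 1.53 and 5.24 against 20.2 and 20.3 CPM. Apart from Sox12 under the mouse block in periosteal-like cells, none of the 3 was called in the preosteoblast-like or periosteal-like comparison.

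Promoters of the genes that act with group F factors were searched for ACAATG and ACAAAG, short sequences that Sox proteins bind in general, on both strands of the 250 bases before each start in RefSeq on GRCm38.p6. The 18 genes had 21 such promoters of 15 genes, of which 4 (19.0%) held either sequence, against 24.9% of 32609 promoters of all genes. The 4 genes were all higher in endothelial-like cells, as were 15 of the 18 on the list. Of the 4, Prox1 and Gja5 had their direction fixed by the filter on low counts. The 4 promoters are shown 5′ to 3′ on the gene's strand with the match, or its complement, in capitals. They lie at chr1:190169516-190169765 (minus strand, Prox1), chr3:97032152-97032401 (plus, Gja5), chr13:83573357-83573606 (plus, Mef2c) and chr16:95459349-95459598 (minus, Erg).
Prox1: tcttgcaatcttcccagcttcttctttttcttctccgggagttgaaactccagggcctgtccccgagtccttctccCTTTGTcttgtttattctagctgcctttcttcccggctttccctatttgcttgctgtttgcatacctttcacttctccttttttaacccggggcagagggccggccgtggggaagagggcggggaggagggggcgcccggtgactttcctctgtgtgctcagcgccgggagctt
Gja5: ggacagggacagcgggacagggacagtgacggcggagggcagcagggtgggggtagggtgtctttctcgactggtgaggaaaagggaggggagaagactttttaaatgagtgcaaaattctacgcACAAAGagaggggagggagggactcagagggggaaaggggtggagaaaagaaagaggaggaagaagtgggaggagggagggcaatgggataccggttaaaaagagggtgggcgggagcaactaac
Mef2c: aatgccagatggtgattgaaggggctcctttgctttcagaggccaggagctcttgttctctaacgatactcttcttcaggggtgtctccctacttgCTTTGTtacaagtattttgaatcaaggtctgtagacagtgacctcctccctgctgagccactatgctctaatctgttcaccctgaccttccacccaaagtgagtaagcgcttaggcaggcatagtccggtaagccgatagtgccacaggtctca
Erg: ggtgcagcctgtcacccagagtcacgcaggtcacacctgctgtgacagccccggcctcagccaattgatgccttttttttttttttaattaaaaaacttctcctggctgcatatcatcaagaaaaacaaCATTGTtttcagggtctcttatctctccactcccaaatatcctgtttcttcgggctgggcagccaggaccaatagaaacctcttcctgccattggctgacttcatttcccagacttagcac
A match is a description of these letters and not a site of binding.

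By the profile over 18 sums of class and mouse (9 classes, 2 mice, log2 of CPM + 1), the gene most like Sox9 among 14173 was Plagl1 (Pearson r = 0.977), followed by Srpx2, Sdc2, Fap and Evc2 (r = 0.951 to 0.953). For Sox4 it was the overlapping Gm26735 (r = 0.975), then Pik3ca, Dyrk2, Prr3 and Rere. Sox6 was most like Dmtn and Add2 (r = 0.964 and 0.961), both genes of the red cell membrane skeleton, then Metap2, Acmsd and Slc25a39. Sox7 was most like Ces2e, Robo4, Ushbp1, Scarf1 and F11r (r = 0.991 to 0.993). Sox17 was most like Podxl, 8430408G22Rik, Afap1l1, Sox11 and Sox18 (r = 0.977 to 0.983), and Sox18 like Ccm2l, Syt15, 8430408G22Rik, Ptprb and Kif26a (r = 0.982 to 0.988). For Sox5 the values were lower (Churc1, r = 0.850, then Jmjd4, Btrc, Gpr19 and Ppp3cb). The sums of 1 mouse share a library, so these correlations describe the 18 sums and carry no test.

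Last, reticular-like cells with tdTomato, marked by Cre after tamoxifen, were compared with those without. Cells were called positive above a level of 7.72 and 14.6 tdTomato UMIs per 10000, which 99% of the blood cells of the same mouse did not exceed, giving 513 and 988 positive and 796 and 1576 negative cells. Sox9 stood at 51.1 CPM (45.8 to 56.8) against 57.8 CPM (53.1 to 62.7) in Mouse #1 and at 15.4 CPM (13.3 to 17.7) against 20.6 CPM (18.6 to 22.8) in Mouse #2, lower in positive cells of both mice. Sox4 stood at 693 CPM (673 to 713) against 598 CPM (583 to 613) and at 590 CPM (577 to 604) against 625 CPM (614 to 637), with the mice in opposite directions. Sox4, Sox5 and Sox9 passed the filter and none was called, with log2 fold changes of 0.10 ± 0.10 (adjusted p = 0.921), -0.40 ± 0.67 (0.962) and -0.23 ± 0.66 (0.986). The background was 0 of 12217 genes called by edgeR's test, 553 of them at an unadjusted p under 0.05, while DESeq2 called 10 of 8901. Positive and negative cells came from the same 2 mice, and the fit without a block left the gap between mice in its spread. With the mouse as a block in edgeR's test 779 genes were called (6.38%). Sox9 then had a log2 fold change of -0.25 ± 0.09 with an adjusted p of 0.0759. That of Sox4 was 0.09 ± 0.05 (0.335) and that of Sox5 was -0.51 ± 0.44 (0.595).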

How the data were processed

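Counts of UMIs per gene and barcode were deposited without normalization. Per the file headers, Cell Ranger 3.0.0 made them, and alignment by the authors was to mm10 with reporter sequences added. A barcode was kept as a cell when it held 1000 or more genes and no more than 15% mitochondrial UMIs, as in the study. Cells were clustered with scanpy 1.11.5 and leidenalg 0.10.2 at resolution 0.5 from 2000 variable genes and 30 components, with the 7 Sox genes and the listed genes left out, and named from marker lists. Doublets were kept: Scrublet's own threshold marked 6 and 3 cells and did not work here, so the highest scores were removed as an alternative. The members and lists were chosen with earlier results of these data known. Counts were summed per mouse and class and tested with edgeR's quasi-likelihood test (version 4.0.16, TMM scaling, genes passing filterByExpr, adjusted p under 0.05), checked on simulated data. Named from the lists were up to 8 called genes a direction with both mice the same way, plus Runx2, Col2a1, Acan and Comp, and for each of the 7 the 5 genes with the most similar profile. Same-numbered sums come from 1 mouse. Their deviations correlated at 0.27 (preosteoblast), 0.12 (endothelial), 0.17 (periosteal) and 0.54 (tdTomato), so the mouse pairs them. The study names no test for summed counts, and 2 sums a class leave the p-values resting on a spread shared over genes.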

Additional observations from a re-analysis of the deposited data

How the results depend on the processing

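The limits of these data are few animals and few UMIs. There were 2 mice, the sinusoidal-type class had 28 cells in each, Sox5 was near the floor of counting, and intervals cover counting error only. Over the alternatives, 98 values that answer a comparison stayed within their limits and 8 moved. Some of the 98 could not have moved. The limit of a ratio was the SD of the 2 mice, and the value of either mouse alone always lies within it. Leaving out reticular-like cells cannot change the ratios between the endothelial classes. Leaving out the filter on low counts lets more genes be tested. Without it, 23 listed genes were called in preosteoblast-like cells (13 with it) and 16 in periosteal-like cells (10 with it). Over all genes, 3087 and 2966 of 20231 were called without it, against 2272 and 2120 of 13218 with it. Without the cell with the most UMIs of a gene, an alternative chosen after seeing the data, the log2 ratio of arterial-type over sinusoidal-type cells became 4.15 for Sox17, 2.73 for Sox18 and 0.49 for Sox7. That of Sox18, whose SD was 0.03, was 2.08 with the highest Scrublet scores removed and 2.26 with stricter limits on cells. Without the reticular-like cluster led by Lsmem1, also chosen after seeing the data, the log2 ratio of Sox9 in periosteal-like over reticular-like cells was 0.88, and without the cell with the most Sox9 UMIs it was -0.02 (0.25 with all cells). The cause of these shifts was not tested.

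Leaving out 1 mouse at a time, the log2 ratio ranged from -0.36 to 1.66 for Sox9 in preosteoblast-like and from -0.15 to 0.65 in periosteal-like over reticular-like cells, and from -0.79 to -0.58 for Sox4 in preosteoblast-like over reticular-like cells. Between the endothelial classes it ranged from 3.46 to 3.72 for Sox17, 2.20 to 2.25 for Sox18, 0.06 to 0.37 for Sox7 and -1.87 to -1.48 for Sox4. The erythroid-like share of Sox6 ranged from 93.4% to 96.5%. With 1 mouse left no spread among samples remained, so counts of called genes could not be fitted. Single genes that changed sign without a mouse, none of them called with both, were Col2a1 in periosteal-like cells (-1.11 to 0.69), Comp in endothelial-like cells (-2.48 to 0.97) and Sox4 in tdTomato-positive cells (-0.082 to 0.21).

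With the mouse as a replicate block, 15, 32 and 13 listed genes were called in preosteoblast-like, endothelial-like and periosteal-like cells. Without it the numbers were 13, 30 and 10. Over all 13218 genes, 2621, 5630 and 2295 were called with the block and 2272, 5477 and 2120 without it. By tdTomato state 0 Sox genes were called with the block. It changed no call other than those named above. Among single named genes 12 values lost and 6 gained a call under an alternative in the same direction. Those that lost one were Fgfr3, Hey1 and Gja5 in periosteal-like cells, Col9a2 in endothelial-like cells and Pthlh and Tubb3 in preosteoblast-like cells.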

Other observations

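Cells led by Acta2 and cell cycle genes stayed unnamed (67 and 86 cells). They held 25 Sox9 UMIs (9.73 to 22.2 CPM) in Mouse #1 and 85 (34.7 to 53.6 CPM) in Mouse #2, again unequal, Sox4 at 283 and 201 CPM, and Col2a1 at 58.3 and 51.0 CPM.

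Reticular-like cells with at least 4 Sox9 UMIs (65 and 39) stood above those with none (1019 and 2295) in Txnip (180 against 90.8 and 140 against 71.8 CPM), in Csrnp1 (82.0 against 32.7 and 47.6 against 20.8 CPM) and in Id2 (172 against 92.8 and 135 against 64.8 CPM). The immediate early gene Fos stood at 4255 against 2088 CPM in Mouse #1 and at 1625 against 1459 CPM in Mouse #2. The Sox9-rich cells were also deeper, with medians of 16590 and 15269 against 11507 and 10896 UMIs. Some genes were higher in Sox9-rich preosteoblast-like cells of both mice. Of these, Omd, Nog and Sfrp2 differed in Sox9-rich reticular-like cells by no more than 0.16 on the log2 scale of CPM + 10. Nog was near the floor of counting there, at 2.62 against 2.53 and 0 against 1.19 CPM, so this scale could show little difference. Lum (0.31 and 1.10), Wif1 (0.49 and 0.54) and Dcn (0.19 and 0.32) were higher in Sox9-rich reticular-like cells too. Sox9 chose these cells, so the values are a description.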
